A study of Mus musculus with 32 samples.

Results

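The Serpina3 genes of the mouse are a tandem array of near-copies on chromosome 12 that stands where humans have the single gene SERPINA3, which encodes alpha-1-antichymotrypsin. The 8 followed here in mouse epidermis were Serpina3c, Serpina3f, Serpina3g, Serpina3h, Serpina3i, Serpina3k, Serpina3m and Serpina3n, matched by symbol among the 55401 gene identifiers counted. They were chosen by their cpm across genotype and UV in these same mice, so that values across genotype and UV are described and nothing is read from a test of them. The differences between sexes had no part in that choice and are tested. The variation from mouse to mouse within groups is also tested. Whether the copies move together was, however, asked when the genes were chosen, so those P values are not independent of the choice.

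RNA was sequenced from the epidermis, separated from the dermis, of 32 hairless B6.129-SKH1-Hrhr mice, from a cross of SKH1-Hrhr with Sv129/C57BL6/J mice, aged 10 to 14 weeks. The mice were wild-type or Ppard-/- littermates, the latter lacking the nuclear receptor PPARβ/δ, and were male or female. They received either a single UV dose of 120 mJ/cm2, with epidermis collected 24 h later, or sham handling (control). This made 8 groups of 4 mice, each sequenced once, and mice are named by their number and sex (54F, 38M). Levels are given as cpm, the count of a gene per 1000000 reads on genes in its library.

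Serpins inhibit proteases by suicide: the protease cuts an exposed reactive centre loop, the serpin folds around it and both are trapped. Alpha-1-antichymotrypsin is a classical acute-phase protein, made by liver and by many other cells in response to interleukin-6 and STAT3, and it inhibits cathepsin G and mast cell chymase. Among the mouse copies, Serpina3n is a secreted inhibitor of granzyme B and neutrophil proteases, Serpina3g (also called Spi2A) is an intracellular inhibitor of cysteine cathepsins known from activated T cells, and Serpina3k is known from liver and plasma. Serpina3h was annotated as a transcribed unprocessed pseudogene, that is, a copy made by duplication that still has introns.

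The copies resemble each other closely in sequence, which matters for any count assigned to one of them. Over the 28 pairs of the 8 genes, the longest transcripts (GENCODE M21, build GRCm38) had 76.1% to 91.5% identical bases in their aligned part, with a median of 81.7%. Serpina3h and Serpina3i were the most alike pair at 91.5%, followed by Serpina3k and Serpina3m at 91.4%. The stretch of 90 coding bases in which 6 of the copies are most alike is printed first, with capitals marking bases that differ from the commonest base at that position. Any pair differed there by 2 to 9 bases.
Serpina3h: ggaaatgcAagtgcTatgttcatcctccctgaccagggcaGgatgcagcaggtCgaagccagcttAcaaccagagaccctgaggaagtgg
Serpina3i: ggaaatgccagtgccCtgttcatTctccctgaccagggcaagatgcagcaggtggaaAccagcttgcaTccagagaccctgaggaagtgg
Serpina3g: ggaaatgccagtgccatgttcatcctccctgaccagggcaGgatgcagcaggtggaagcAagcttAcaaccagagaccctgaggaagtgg
Serpina3f: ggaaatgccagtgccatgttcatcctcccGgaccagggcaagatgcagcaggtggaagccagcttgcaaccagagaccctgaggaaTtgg
Serpina3n: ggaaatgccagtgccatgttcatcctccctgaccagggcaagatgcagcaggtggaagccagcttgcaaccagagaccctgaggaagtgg
Serpina3c: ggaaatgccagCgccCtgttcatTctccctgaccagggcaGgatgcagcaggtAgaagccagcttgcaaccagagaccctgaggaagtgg

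The stretch in which the coding copies are least alike shows how far they can be told apart. Among Serpina3i, Serpina3g, Serpina3f, Serpina3n and Serpina3c, pairs differed there by 13 to 26 of 90 bases, and Serpina3n carried 20 bases that were not the commonest one.
Serpina3i: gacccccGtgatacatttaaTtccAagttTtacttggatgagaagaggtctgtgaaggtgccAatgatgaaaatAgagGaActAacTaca
Serpina3g: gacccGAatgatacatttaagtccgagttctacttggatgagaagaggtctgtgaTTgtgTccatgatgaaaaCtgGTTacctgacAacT
Serpina3f: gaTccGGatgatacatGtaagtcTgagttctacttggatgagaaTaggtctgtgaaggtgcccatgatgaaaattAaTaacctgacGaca
Serpina3n: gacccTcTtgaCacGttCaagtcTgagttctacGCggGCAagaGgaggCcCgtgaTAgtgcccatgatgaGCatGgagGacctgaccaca
Serpina3c: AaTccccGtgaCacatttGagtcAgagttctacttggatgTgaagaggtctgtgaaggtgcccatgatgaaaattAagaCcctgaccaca

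Reads were single-end and of 100 cycles, and reads that aligned to more than 1 place were not counted. Of the 100-base windows in the annotated transcripts of each gene, the share with an exact copy in a transcript of another gene was 3.6% for Serpina3h, 2.25% for Serpina3i, 3.49% for Serpina3g, 3.4% for Serpina3f and 0.204% for Serpina3n, and Serpina3c had none. It was highest for Serpina3k at 4.85% and Serpina3m at 6.09%, which share a start in the annotation. Every shared window lay in another Serpina3 gene. With 75-base windows the share rose to 11% for Serpina3h and 6.62% for Serpina3i. Most of each transcript was therefore unique among annotated transcripts when a read matched it exactly. Copies elsewhere in the genome and reads with mismatches were not examined. The longest exact run common to Serpina3h and Serpina3i was 114 bases.

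Start-site sequence was at hand in RefSeq (GRCm38.p6) for 5 of the 8 genes. Bases upstream of the first annotated exon are printed because genes of this family are known as STAT targets, with capitals for TTCNNNGAA, the gamma-activated site (GAS) that STAT proteins bind. The genes were on chromosome 12, at chr12:104262872-104263044 for Serpina3i, chr12:104235897-104236146 for Serpina3g, chr12:104214294-104214543 for Serpina3f and chr12:104406458-104406645 for Serpina3n on the plus strand, and at chr12:104153930-104154122 on the minus strand for Serpina3c.
Serpina3i: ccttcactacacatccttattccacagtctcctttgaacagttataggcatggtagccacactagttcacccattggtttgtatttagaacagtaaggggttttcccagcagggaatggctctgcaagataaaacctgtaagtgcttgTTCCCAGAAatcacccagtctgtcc
Serpina3g: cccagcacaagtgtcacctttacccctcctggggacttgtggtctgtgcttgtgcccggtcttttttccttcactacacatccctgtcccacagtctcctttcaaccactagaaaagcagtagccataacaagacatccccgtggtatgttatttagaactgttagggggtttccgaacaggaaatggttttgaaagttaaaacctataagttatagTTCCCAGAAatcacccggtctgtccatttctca
Serpina3f: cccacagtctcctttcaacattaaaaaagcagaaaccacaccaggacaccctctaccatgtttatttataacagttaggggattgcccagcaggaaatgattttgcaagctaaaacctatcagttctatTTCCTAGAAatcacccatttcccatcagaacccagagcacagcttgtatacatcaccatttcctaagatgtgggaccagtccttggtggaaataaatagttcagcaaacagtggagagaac
Serpina3n: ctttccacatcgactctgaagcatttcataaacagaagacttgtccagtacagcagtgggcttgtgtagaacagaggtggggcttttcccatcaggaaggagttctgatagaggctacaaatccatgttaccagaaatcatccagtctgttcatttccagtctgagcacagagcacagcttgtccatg
Serpina3c: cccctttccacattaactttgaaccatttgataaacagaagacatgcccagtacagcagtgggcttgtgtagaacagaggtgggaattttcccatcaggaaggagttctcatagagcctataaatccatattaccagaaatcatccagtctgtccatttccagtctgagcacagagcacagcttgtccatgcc

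Serpina3i, Serpina3g and Serpina3f each held 1 match to TTCNNNGAA, a palindrome that reads the same on both strands, in a window from 250 bases before to 50 after the start, as did 8.3% of the 32851 such windows of all genes. Serpina3n and Serpina3c held none. These latter upstream stretches were close to each other, with 92.6% identical bases, against 69.9% between Serpina3n and Serpina3g. TGANTCA, the AP-1 motif, was in no member's window and in 7.81% of all windows, searched on both strands. The palindromic glucocorticoid response element was likewise in no member's window, and in 3 of the 32851. A match or its absence in these letters says nothing about binding.

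Between 22919428 and 40653581 reads per mouse were assigned to genes, with a median of 27600228.5, and 31.4% to 38.8% of aligned reads had more than 1 position. Summed over 5 keratinocyte markers (Krt5, Krt14, Krt1, Krt10 and Trp63), levels were 24801 to 92665 cpm, and 4 hepatocyte markers summed to at most 0.109 cpm. Counts over the whole Ppard gene were lower in Ppard-/- than in wild-type mice, at 67.2 to 84.9 against 85.2 to 111 cpm in controls and 174 to 255 against 243 to 317 cpm after UV, so reads from the gene were still counted in Ppard-/- mice and this count alone does not check the deletion. One library stood apart. In the UV-exposed Ppard-/- female 54F, 6 dermal fibroblast markers (Col1a1, Col1a2, Col3a1, Dcn, Lum and Pdgfra) summed to 2154 cpm, against 1.77 to 97.3 cpm in the other 31 mice, and 5 macrophage and monocyte markers to 842 cpm, against 31.1 to 262. Serpina3n and Serpina3c are therefore given with and without this mouse. Skeletal muscle markers ranged from 0.496 to 2531 cpm over all mice. In these bulk samples, fewer cells of a type and less RNA per cell cannot be told apart.

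The 8 genes differed widely in level. Per kilobase of exon, Serpina3h was highest with a mean of 30.6 cpm per kb over the 32 mice, followed by Serpina3i with 6.22, Serpina3n with 1.3, Serpina3g with 0.398, Serpina3f with 0.0867, Serpina3c with 0.0829, Serpina3m with 0.00825 and Serpina3k with 0.00522. Without 54F the means of Serpina3n and Serpina3c were 0.353 and 0.0287 cpm per kb, which put Serpina3n below Serpina3g at 0.402. Serpina3h was above Serpina3i in 32 of 32 mice and Serpina3i above Serpina3n in 28 of 32. Serpina3n and Serpina3g, in contrast, were not ordered beyond their spread, Serpina3n being the higher in 15 of 32 mice, and Serpina3f exceeded Serpina3c in only 20. The most abundant copy was thus the annotated pseudogene, which lies at chr12:104247905-104253669 on the plus strand, next to Serpina3i at chr12:104263122-104269372.

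Only 5 of the 8 genes reached 1 cpm in at least 1 mouse, the limit for entering the fit across 15546 genes, and Serpina3c did so through 54F alone. Serpina3h, Serpina3i, Serpina3n and Serpina3g had a mean of at least 10 counts. Serpina3f, Serpina3k and Serpina3m did not enter the fit. Serpina3k totalled 10 reads and Serpina3m 13 reads over all 32 mice, so that nothing could be compared for them at this depth. Of the other Serpina3 symbols, Serpina3b (6.51 cpm per kb), Serpina3j (9.22) and the pseudogene Serpina3e-ps (3.3) were detected, whereas Serpina3a, Serpina3d-ps and Serpina3l-ps totalled 2, 30 and 19 reads.

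Serpina3h was present in every mouse without UV. In wild-type males without UV it was 48.2 (43M), 45.8 (54M), 31.1 (56M) and 36.9 cpm (69M). In wild-type females without UV it was 75.7 (61F), 27.7 (63F), 99 (71F) and 72.9 cpm (73F). One wild-type female was thus at the level of the males and the others well above it. In Ppard-/- males without UV it was 91.2 (34M), 36 (44M), 78 (52M) and 77.1 cpm (67M), and in Ppard-/- females 34.5 (44F), 107 (60F), 30.1 (62F) and 72.2 cpm (69F). The genotypes overlapped, over 27.7 to 99 cpm in wild-type and 30.1 to 107 cpm in Ppard-/- mice.

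After UV, Serpina3h was low in the 4 Ppard-/- males, at 1.74 (58M), 3.15 (59M), 2.19 (61M) and 2.55 cpm (72M). The Ppard-/- females were higher, at 30.1 (52F), 72.8 (54F), 55 (66F) and 27.1 cpm (74F), which overlapped with females without UV. Wild-type males after UV were at 28.4 (32M), 3.21 (38M), 58.8 (57M) and 70.9 cpm (71M), and wild-type females at 29.4 (51F), 21.6 (57F), 29.7 (59F) and 1.88 cpm (77F). One mouse in each wild-type group was therefore as low as the Ppard-/- males, and the others were not.

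Serpina3i followed the same mice. Without UV it was 8.65 (43M), 9.81 (54M), 9.07 (56M) and 6.25 cpm (69M) in wild-type males and 23.4 (61F), 5.22 (63F), 35.6 (71F) and 25.1 cpm (73F) in wild-type females. In Ppard-/- mice without UV it was 27.7 (34M), 9.12 (44M), 26.6 (52M) and 25.3 cpm (67M) in males and 4.71 (44F), 38.6 (60F), 6.48 (62F) and 23.2 cpm (69F) in females. The mice that were low or high for Serpina3h were low or high here too. After UV, Ppard-/- males were at 0.717 (58M), 1.92 (59M), 1.19 (61M) and 0.923 cpm (72M) and Ppard-/- females at 11.8 (52F), 23.3 (54F), 17.3 (66F) and 13.4 cpm (74F). Wild-type males were at 9.41 (32M), 1.64 (38M), 17.5 (57M) and 26.4 cpm (71M) and wild-type females at 10.5 (51F), 7.74 (57F), 11.7 (59F) and 2.09 cpm (77F), with 38M and 77F again the lowest of their groups.

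**Figure D1:**
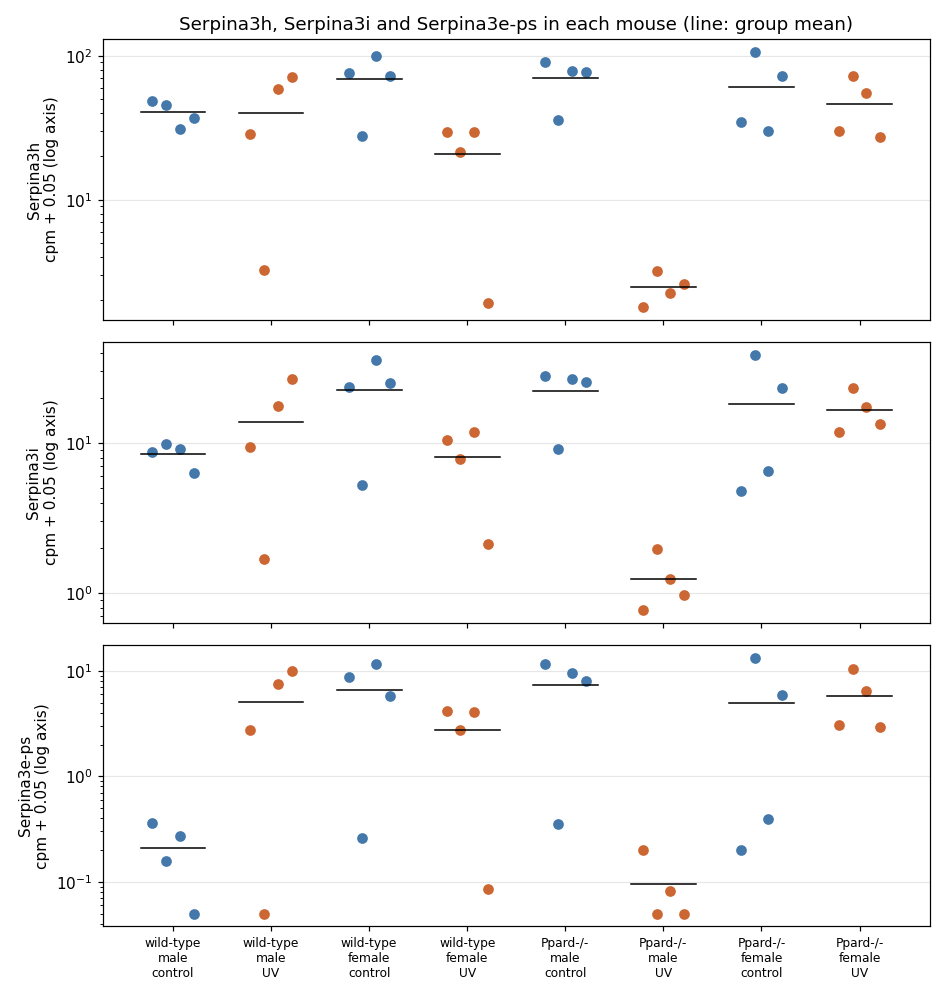
Levels of Serpina3h, Serpina3i and Serpina3e-ps in each of the 32 mice, as cpm plus 0.05 on a log axis, by genotype, sex and exposure, with blue points for control and orange for UV-exposed mice and a line at each group's mean. The 4 UV-exposed Ppard-/- males, the wild-type male 38M and the wild-type female 77F lie lowest for Serpina3h, at 1.74 to 3.21 cpm.

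Within each exposure the mice fell into separate levels, which were set after their values were seen and are no groups of the study. Without UV, 8 mice had 27.7 to 48.2 cpm of Serpina3h and 4.71 to 9.81 cpm of Serpina3i, and the other 8 had 72.2 to 107 and 23.2 to 38.6 cpm. After UV, 6 mice had 1.74 to 3.21 cpm of Serpina3h and 0.717 to 2.09 cpm of Serpina3i, and the other 10 had 21.6 to 72.8 and 7.74 to 26.4 cpm. The pseudogene Serpina3e-ps, chosen for mention after its values were seen, split the same mice more sharply. It was at 0 to 0.344 cpm in the 14 mice of the lower levels and at 2.69 to 13.2 cpm in the 18 mice of the upper levels, with no value between. Without UV, the lower level held all 4 wild-type males, 1 wild-type female, 1 Ppard-/- male and 2 Ppard-/- females. All UV-exposed Ppard-/- males were at the lower level and all UV-exposed Ppard-/- females at the upper, so that level and sex cannot be told apart in those 8 mice.

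Inside the levels, Serpina3h and Serpina3i are described by the correlation of their log2 cpm with no test, since the levels were set from these same values and pool genotypes and sexes. Among the 8 control mice of the upper level Pearson's r was 0.95 and Spearman's rho 0.90, and among the 10 UV-exposed mice of the upper level r was 0.94 and rho 0.87. Without the 2 mice farthest from the median r was 0.93 and 0.89. At the lower levels r was 0.66 and rho 0.69 over 8 control mice, and r was 0.39 and rho 0.37 over 6 UV-exposed mice, with r of 0.52 and -0.42 without the 2 farthest. The ratio of Serpina3h to Serpina3i varied between the levels. It was 2.77 to 3.29 in the upper and 3.43 to 7.33 in the lower control mice, and 2.02 to 3.36 in the upper and 0.898 to 2.76 in the lower UV-exposed mice.

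**Figure D2:**
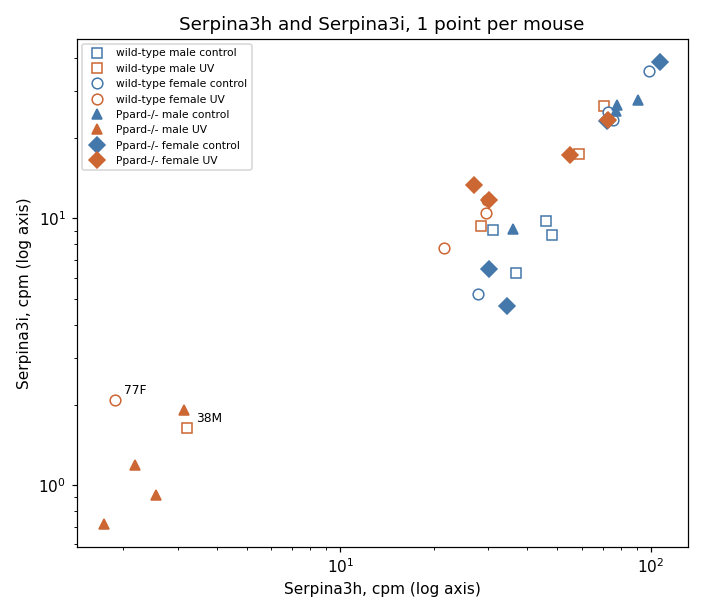
Serpina3i against Serpina3h in cpm, both on log axes, with 1 point per mouse, colour for exposure, filled symbols for Ppard-/- and symbol shape for genotype and sex. The 6 lowest points lie at 1.74 to 3.21 cpm of Serpina3h, apart from all other mice, which start at 21.6 cpm.

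No such relation was found between the other copies. For the 4 genes with at least 10 counts on average, the 6 pairs were compared after subtracting each group's mean from log2 cpm. For the 5 pairs other than Serpina3h with Serpina3i, r ranged from -0.20 to 0.07 and rho from -0.14 to 0.12 over 32 mice, and none passed the threshold (permutation within groups, 100000 resamples, adjusted P value of at least 0.7 for r over the 6 pairs). For example, Serpina3g and Serpina3n, which both have granule or lysosomal proteases among their known targets, had r = 0.07 and rho = 0.12 (permutation P value = 0.71 and 0.551, adjusted P value = 0.71 and 0.621), and r = 0.01 without the 2 farthest mice. All 5 pairs held Serpina3g or Serpina3n, with medians of 0.568 and 0.45 cpm, against 35.3 and 10.1 cpm for Serpina3h and Serpina3i. At so few reads a relation could be missed. Serpina3b and Serpina3j formed a pair of their own, with r = 0.88 and rho = 0.86 (permutation P value = 1e-05 for each, the smallest that 100000 resamples can give, adjusted P value = 0.000105 over 21 pairs that include the other detected Serpina3 genes) and r = 0.86 without the 2 farthest mice. Over the same 21 pairs, Serpina3i and Serpina3b varied inversely by rank, with rho = -0.51 (permutation P value = 0.0105, adjusted P value = 0.0443). Their r of -0.39 did not pass (permutation P value = 0.0657, adjusted P value = 0.276).

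By the same group-centred measure, the genes outside the 8 most like Serpina3h among 14911 genes were Serpina3e-ps (r = 0.88), Itgb5 on chromosome 16 (0.78), which encodes an integrin subunit, and the gasdermin gene Gsdmc3 on chromosome 15 (0.74). Those most like Serpina3i were Serpina3e-ps (0.92), Gsdmc3 (0.75) and Gsdmc4 on chromosome 15 (0.75). For comparison, Serpina3h and Serpina3i had r = 0.92 with each other. These r values over 32 mice take in the split of the mice into levels and are given as a ranking only. Serpina3e-ps shared no 100-base window with Serpina3h or Serpina3i. Of its 1154 windows of 75 bases, 5 were shared with Serpina3h and 21 with Serpina3i.

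The fold changes with UV can be read against these levels. In wild-type mice Serpina3h was 27.7 to 99 cpm (median 47) without and 1.88 to 70.9 cpm (median 28.9) after UV, a log2 fold change of -0.82 ± 0.44 (SE, 8 mice each). In Ppard-/- mice it was 30.1 to 107 cpm (median 74.7) without and 1.74 to 72.8 cpm (median 15.1) after UV, a log2 fold change of -2.66 ± 0.48. For Serpina3i the corresponding log2 fold changes were -0.35 ± 0.46 in wild-type and -2.21 ± 0.48 in Ppard-/- mice. With limma-trend, the change of Serpina3h in wild-type mice was -1.38. By sex, the log2 fold change of Serpina3h was 0.04 ± 0.62 in wild-type males, -1.69 ± 0.64 in wild-type females, -4.93 ± 0.75 in Ppard-/- males and -0.40 ± 0.62 in Ppard-/- females (-0.67 ± 0.68 without 54F), and that of Serpina3i was 0.74 ± 0.65, -1.44 ± 0.65, -4.27 ± 0.75 and -0.14 ± 0.64 in the same order. UV-exposed and control Ppard-/- males did not overlap for Serpina3h and Serpina3i, which lay lower after UV, as did 25.1% of the 15546 genes fitted. Serpina3c did not overlap either, but only on 1 to 4 reads per control male against 0 after UV.

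Compared directly, Ppard-/- and wild-type mice differed in Serpina3h by 0.39 ± 0.44 on the log2 scale without UV and by -1.45 ± 0.46 after UV, and in Serpina3i by 0.62 ± 0.45 and -1.24 ± 0.47. The difference of the UV responses, Ppard-/- minus wild-type, was -1.84 ± 0.64 for Serpina3h and -1.86 ± 0.66 for Serpina3i. For Serpina3h, limma-trend gave -0.86 after UV and -1.19 for the difference of the responses. The genotypes overlapped in cpm for each of the 5 fitted genes at either exposure, where without UV 0.0708% of genes lay wholly higher and 0.0579% wholly lower in Ppard-/- mice, and after UV 0.0322% and 0.142%. The values for genotype after UV, for the UV response in each genotype and for the difference of the responses share the same mice.

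**Figure D3:**
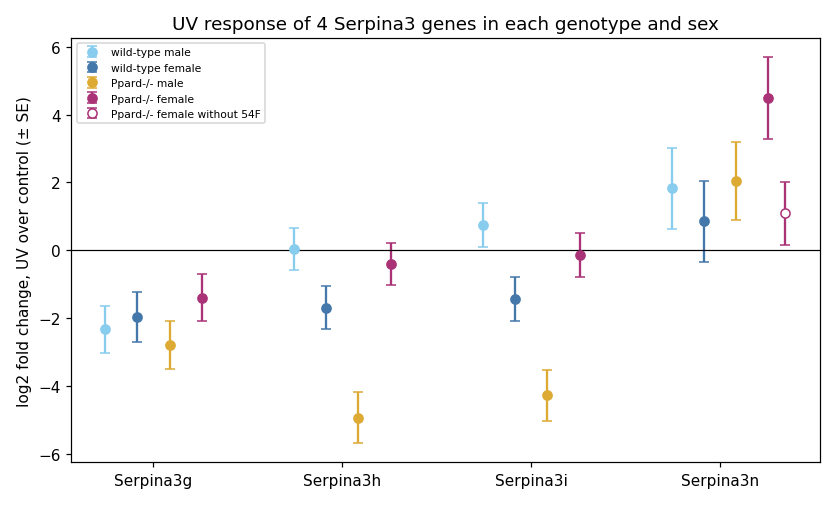
Log2 fold change, UV over control, with its SE, of Serpina3g, Serpina3h, Serpina3i and Serpina3n in each genotype and sex, 4 mice per group, with the open point for Ppard-/- females without 54F. Serpina3g lies below 0 in each, Serpina3h and Serpina3i are lowest in Ppard-/- males, and Serpina3n in Ppard-/- females moves from 4.49 to 1.09 without 54F.

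Serpina3g, the intracellular cathepsin inhibitor, was lower after UV in both genotypes and was low throughout. In wild-type males it was 0.856 to 3.75 cpm without and 0.175 to 0.776 cpm after UV, and in wild-type females 0.482 to 1.26 and 0 to 0.425 cpm. Within each sex of the wild-type mice the exposures thus did not overlap, as held for 29.4% of genes lower after UV in males and 31.3% in females. In Ppard-/- males it was 0.304 to 2.85 cpm without and 0.0994 to 0.48 cpm after UV, and in Ppard-/- females 0.57 to 2.03 and 0.236 to 0.631 cpm, with overlap in both. The log2 fold change was -2.15 ± 0.50 in wild-type and -2.09 ± 0.50 in Ppard-/- mice, and the responses differed by 0.05 ± 0.66. The sum of 5 T cell markers (Cd3e, Cd3g, Cd3d, Trdc and Thy1) moved in the same direction. It was 102 to 204 cpm without and 17.3 to 52.4 cpm after UV in wild-type mice, and 80.1 to 171 and 27.4 to 82.2 cpm in Ppard-/- mice. All 5 fell in both genotypes by edgeR with Benjamini-Hochberg adjustment, where 5675 of 15546 genes fell in wild-type and 5203 in Ppard-/- mice. Without 54F, 4 of 5 fell in Ppard-/- mice. The sum of 4 Langerhans cell markers (Cd207, Cd74, H2-Ab1 and H2-Aa) ranged over 366 to 872 cpm without and 181 to 269 cpm after UV in wild-type mice. In Ppard-/- mice it ranged over 204 to 800 cpm without and 183 to 630 cpm after UV, with overlap. All 4 Langerhans cell markers passed as lower in both genotypes. Median keratinocyte sums were 72989 without and 33886 cpm after UV in wild-type mice, and 71790 and 35196 cpm in Ppard-/- mice. Median macrophage and monocyte sums rose instead, from 65.9 to 117 cpm and from 61.3 to 148 cpm. The single markers did not all follow these sums. Of the 5 keratinocyte markers, 1 passed as higher and 3 as lower in wild-type mice, and 2 and 2 in Ppard-/- mice. Their median log2 fold changes were -0.50 and 0.23. Of the 5 macrophage and monocyte markers, 2 passed as higher and 1 as lower in wild-type mice, and 3 and 0 in Ppard-/- mice. Over all genes, 34.5% and 37.3% passed as higher. Whether any of these cells had a part in the Serpina3g values was not tested.

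Serpina3n, the secreted granzyme B inhibitor, lay at 0.104 to 0.589 cpm (median 0.221) in wild-type control mice and at 0.0611 to 2.95 cpm (median 0.312) in UV-exposed ones. In Ppard-/- mice it lay at 0.106 to 1.41 cpm (median 0.313) without and at 0.497 to 63.5 cpm (median 1.04) after UV. The highest value by far, 63.5 cpm or 2017 reads, was in 54F, and the next were 3.1 (58M), 2.95 (38M) and 2.91 cpm (52F). The other 3 UV-exposed Ppard-/- females were at 0.701 to 2.91 cpm and the 4 males at 0.497 to 3.1 cpm, overlapping with mice without UV.

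The log2 fold change of Serpina3n with UV was 1.34 ± 0.84 in wild-type mice and 3.26 ± 0.83 in Ppard-/- mice, or 1.58 ± 0.65 without 54F. Without 38M it was 0.40 in wild-type mice. The genotype difference after UV was 2.79 ± 0.80, and 1.09 ± 0.64 without 54F, and the difference of the UV responses was 1.92 ± 1.17, and 0.21 ± 0.95 without 54F. Of the 6 fibroblast markers, 6 passed as higher in Ppard-/- than in wild-type mice after UV, where 418 of 15546 genes did. None of the 6 passed without 54F, when they summed to 6.42 to 27.4 cpm against 1.77 to 8.45 cpm. In 54F, macrophage markers were high as well. So was Serpina3c, at 3.9 cpm or 124 reads against at most 0.309 cpm elsewhere, and complement C3, at 748 against at most 13.9 cpm. The mast cell proteases Cma1 and Mcpt4 were at 5.48 and 6.46 cpm in that mouse, against at most 0.912 and 1.37 cpm elsewhere. The part of other cell types in the Serpina3n and Serpina3c values was not tested. Among the other mice, high fibroblast markers without UV (97.3 cpm in 44F and 90.1 in 60F) came with 1.41 and 1.31 cpm of Serpina3n. In 58M, 38M and 52F the fibroblast markers summed to 27.4, 8.45 and 9.59 cpm, but 4 skeletal muscle markers to 1044, 2122 and 1779 cpm. The muscle sum was 1823 cpm in 54F, 2156 in 44F and 2531 in 60F. It was also 1308 cpm in 71F, which had 0.26 cpm of Serpina3n, and 4.36 cpm in 72M, which had 1.11. The part of muscle in these values was not tested either.

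**Figure D4:**
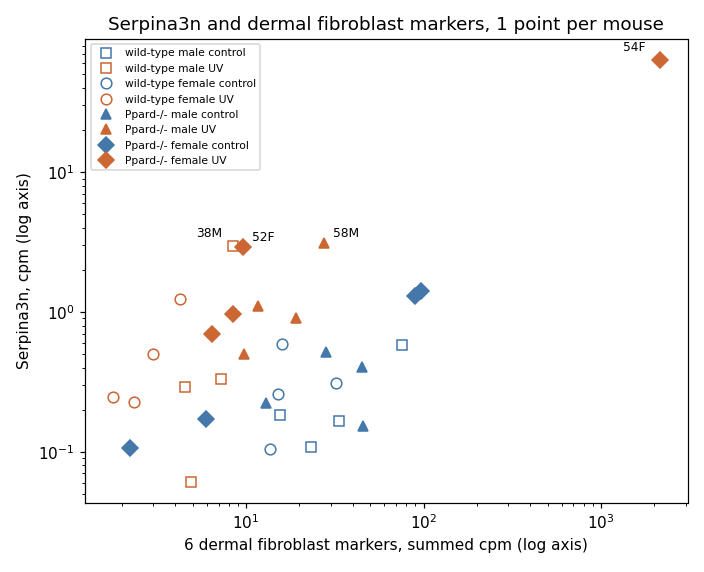
Serpina3n in cpm against the summed cpm of 6 dermal fibroblast markers, both on log axes, with 1 point per mouse, blue for control and orange for UV, and filled symbols for Ppard-/- mice. Mouse 54F lies alone at 2154 cpm of the markers and 63.5 cpm of Serpina3n, and the remaining mice lie at or below 97.3 and 3.1 cpm.

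Serpina3c and Serpina3f were near the limit of detection. Serpina3c totalled 25 reads in the 8 wild-type and 26 in the 8 Ppard-/- control mice, and 3 reads in the UV-exposed wild-type mice. After UV no read fell on it in 7 of 8 Ppard-/- mice, so that its fitted fold changes depend on how zeros are handled and are not given. Serpina3f totalled 61 and 71 reads in wild-type and Ppard-/- control mice, and 28 and 27 after UV, of which 19 were from 54F. Its highest level was 0.598 cpm.

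Sex had no part in the choice of the genes. Averaged over genotypes, none of the 4 genes passed the threshold between females and males without UV, where 6.86% of genes did, with log2 differences, female minus male, of 0.15 ± 0.44 for Serpina3h, 0.43 ± 0.45 for Serpina3i, -1.01 ± 0.47 for Serpina3g and 0.60 ± 0.86 for Serpina3n (edgeR adjusted P value = 0.871, 0.597, 0.178 and 0.713). After UV, where 3.03% of genes passed, Serpina3h differed by 1.55 ± 0.47 and Serpina3i by 1.40 ± 0.48 (edgeR adjusted P value = 0.0623 and 0.0904), which did not pass. DESeq2 gave 0.0202 and 0.0453 for the same comparison, and without 52F, 74F or 77F 1 of the 4 genes passed with edgeR. Serpina3g differed by -0.13 ± 0.51 and Serpina3n by 1.33 ± 0.78, or -0.37 ± 0.64 without 54F, and neither passed. For the difference between the sexes in the UV response no gene of 15546 passed (0%) by edgeR, and 1091 had an unadjusted P value below 0.05. There Serpina3h gave 1.40 ± 0.64 and Serpina3i 0.97 ± 0.65 (edgeR adjusted P value = 0.698 and 0.787).

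Looked at within genotype, a step chosen after the values were seen and therefore given without a test, UV-exposed Ppard-/- females exceeded males by 4.12 ± 0.73 on the log2 scale for Serpina3h and by 3.64 ± 0.74 for Serpina3i, or by 3.84 ± 0.75 and 3.46 ± 0.76 without 54F. Females and males did not overlap for either gene, as held for 10% of genes that lay wholly higher in females. In UV-exposed wild-type mice the differences were -1.02 ± 0.63 and -0.84 ± 0.65, with overlap.

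Among neighbouring and related genes, Serpina3b fell with UV in wild-type mice by 3.22 ± 0.61 on the log2 scale (edgeR adjusted P value = 3.13e-05), from 3.86 to 54.2 cpm (median 27) without to 1.11 to 6.75 cpm (median 2.8) after UV. In Ppard-/- mice its change was -0.91 ± 0.57 and did not pass (edgeR adjusted P value = 0.155), and the difference of the responses did not pass (adjusted P value = 0.126). Serpina3j gave -0.72 ± 0.56 and 0.76 ± 0.57 and passed in neither genotype (adjusted P value = 0.259 and 0.239). Serpina3e-ps, mentioned after its values were seen and therefore given without a test, had log2 fold changes of -3.55 ± 1.05 in Ppard-/- and 1.90 ± 0.93 in wild-type mice. In Ppard-/- males its mean was 7.36 cpm without and 0.0458 cpm after UV, and in Ppard-/- females 4.91 and 5.67 cpm. In wild-type males the means were 0.159 and 5 cpm, and in wild-type females 6.54 and 2.71 cpm. These mice are the ones that Serpina3e-ps split into levels, and whether the levels account for the fold changes was not tested.

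Of 13 further clade A serpins of the same chromosomal region, 3 entered the fit. Serpina12, also called vaspin and known from epidermis and fat, fell by 3.06 ± 0.30 in wild-type and by 3.0 ± 0.29 in Ppard-/- mice. Serpina9 rose by 1.72 ± 0.49 and 2.55 ± 0.50, and Serpina5, the protein C inhibitor, passed as lower in both. None of the 3 differed between genotypes. The median of the 3 log2 fold changes was -3.06 and -3.0, against -0.01 and 0.09 over all genes. The liver serpins Serpina1a to Serpina1e stayed at or below 0.213 cpm in every mouse.

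Of 9 proteases that Serpina3 proteins or alpha-1-antichymotrypsin are known to bind, 5 entered the fit. Their median log2 fold change was 0.75 in wild-type and 1.17 in Ppard-/- mice. The lysosomal cathepsins Ctsl and Ctsb, targets of the intracellular copies, rose by 1.27 ± 0.11 and 0.50 ± 0.10 in wild-type and by 1.17 ± 0.11 and 0.61 ± 0.10 in Ppard-/- mice, and granzyme B (Gzmb) rose by 1.93 ± 0.55 and 2.39 ± 0.56. Of the 5, 3 rose and none fell in wild-type mice, and 4 rose in Ppard-/- mice, where 37.3% of all genes did, the fourth being Cma1 with the high value in 54F. None of the 5 differed between genotypes.

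The inducers and targets of the acute-phase pathway moved in several directions. Of 16 acute-phase and STAT3 response genes 13 were fitted, of which 7 rose and 2 fell in wild-type and 10 rose and 2 fell in Ppard-/- mice (9 and 2 in each genotype without 54F), where 34.5% and 37.3% of all genes rose. Their median log2 fold change was 1.28 and 1.72. Socs3, the feedback inhibitor of STAT3 signalling, rose by 2.14 ± 0.15 and 1.72 ± 0.15, and Bcl3 by 1.76 ± 0.18 and 1.24 ± 0.17. Stat3 itself changed by 0.17 ± 0.09 and -0.11 ± 0.09 and did not pass, and the plasma protein gene Orm1 fell by 1.56 ± 0.27 and 1.52 ± 0.27. None of the 13 differed between genotypes by edgeR at either exposure.

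Of 8 genes for interleukin-6 family cytokines and receptors, 7 were fitted, of which 4 rose and 3 fell in each genotype, where over all genes 71% passed in either direction in wild-type and 70.8% in Ppard-/- mice. Osmr, the oncostatin M receptor, rose by 1.93 ± 0.13 in wild-type and 1.52 ± 0.13 in Ppard-/- mice. The receptors Il6ra and Lifr and the shared subunit Il6st fell, Il6ra by 1.97 ± 0.09 and 1.81 ± 0.09.

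Of 10 NF-kB response genes, 8 rose in each genotype and 1 fell in Ppard-/- mice, with medians of 1.16 and 1.28, where 34.5% and 37.3% of all genes rose and 71% and 70.8% passed in either direction. Rela rose by 2.06 ± 0.10 and 2.00 ± 0.10, Nfkb2 by 1.27 ± 0.10 and 1.26 ± 0.10 and Nfkbia by 0.83 ± 0.11 and 0.51 ± 0.11, while Nfkb1 did not pass. Of 8 glucocorticoid response genes, 2 rose and 5 fell in wild-type and 1 rose and 4 fell in Ppard-/- mice, with medians of -0.91 and -0.38, against the same shares of all genes. Per1 rose by 0.95 ± 0.15 and 0.91 ± 0.15, and Nr3c1, the receptor, fell by 0.25 ± 0.08 in wild-type mice. By genotype, 1 gene of this list passed without UV, where 0.206% of all genes did, and 1 for the difference of the UV responses, where 0.765% did. Both were Fkbp5, a co-chaperone of the glucocorticoid receptor named here after its values were seen, which was lower in Ppard-/- mice without UV by a log2 difference of -1.20 ± 0.17 and had a difference of responses of 1.39 ± 0.25 (edgeR adjusted P value = 0.00043 and 0.00639). After UV, where 3.31% of all genes differed between genotypes, none of the 8 passed by edgeR.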

How the data were processed

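RNA-seq was done on 32 epidermis samples, 1 per mouse. The authors trimmed reads with cutadapt 1.8, aligned them with STAR 2.5.3a to GRCm38 and deposited raw counts per gene, made with htseq-count 0.9.1 (HTSeq). Reads with several positions or genes were not counted, so near-identical Serpina3 copies could lose reads. From the counts, differences were fitted across every gene that reached 1 cpm in any mouse (edgeR 4.0.16 quasi-likelihood test in R 4.3.3, TMM scaling, 8 group means in 1 fit, Benjamini-Hochberg adjustment). The fit was tested on simulated data. Correlations used log2 cpm with a prior count of 1. DESeq2 1.42.0, limma 3.58.1, other scalings and filters, and leaving out each mouse were tried. Sequences came from GENCODE M21 and RefSeq, aligned with MAFFT 7.526 and Biopython 1.88. The 8 genes, the gene lists and the tests were chosen with earlier results of these data known. Named genes were the 8 members, the other Serpina3 genes and Ppard, up to 4 genes of each list with the highest mean count, and the 3 genes most correlated with Serpina3h and Serpina3i. Some further genes with high values in 54F were named after their values were seen. One gene list is not reported here. Protein sequences were not used here.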

Additional observations from a re-analysis of the deposited data

Results flagged for a closer look

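In groups of 4 mice, a mouse whose gap to its nearest neighbour exceeded Dixon's 95% critical share of the group's range was singled out. For normally distributed values chance does this in about 1 of 20 groups. That rate does not hold for groups with few reads and many zeros, so it cannot be set against the number found here. A mouse was singled out in 9 of the 48 groups examined, over 6 genes. Mouse 54F stood out for 3 genes, with 63.5 cpm of Serpina3n against 0.701 to 2.91 cpm in the rest of its group, 3.9 cpm of Serpina3c against 0, and 0.598 cpm of Serpina3f against 0 to 0.0803 cpm. For Serpina3n, 38M was high among UV-exposed wild-type males at 2.95 cpm, against 0.0611 to 0.333 cpm, and 43M among wild-type male controls at 0.579 cpm, or 15 reads. For Serpina3i, 44M was the lowest Ppard-/- male control at 9.12 cpm, against 25.3 to 27.7 cpm. Serpina3c was singled out at 0.036 cpm in 51F and 0.0554 cpm in 71M, on 1 and 2 reads, and Serpina3f at 0.539 cpm in 54M, on 15 reads.

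The sex difference of Serpina3h after UV was larger in Ppard-/- than in wild-type mice by 5.14 ± 0.96 on the log2 scale, and that of Serpina3i by 4.48 ± 0.97. This comparison was chosen after the values were seen, on the mice that showed it and on values that chose the genes, so it is given without a test. For Serpina3h it was 4.87 without 54F, 4.73 to 5.51 with each of the 32 mice left out, 4.92 with limma-trend and 5.09 with edgeR's own filter on low counts, which kept more genes (16613).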

How the results depend on the processing

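Recomputations other than leave-one-out covered counts of the 4 better-measured genes and of the listed genes past the threshold, and the correlation of Serpina3h with Serpina3i. Of these, 67 of 72 stayed the same. For counts this meant within 1.5 times, and for the correlation the same sign and the same side of the threshold. Leaving out both 38M and 77F for that correlation was added after the data were seen. With limma-trend, 2 of the 4 genes passed with UV in wild-type mice (1 with edgeR). With DESeq2, 2 passed for genotype after UV and 2 for sex after UV (0 with edgeR), and 1 listed gene passed for genotype after UV (0) and 3 for the difference of responses (1). The causes were not tested, and nothing is read from the UV and genotype counts of these 4 genes, whose choice used them. Leaving out 1 mouse, the 4 genes gave 1 to 2 calls with UV in wild-type mice (2 without 71M), 0 to 2 for genotype after UV (more than 0 without 38M, 52F, 59M, 66F, 74F or 77F) and 0 to 1 for sex after UV. Listed genes gave 0 to 4 calls for genotype after UV and 1 to 3 for the difference of responses. Serpina3n, at -0.74 between sexes in UV-exposed wild-type mice, reversed to 0.04 with limma-trend. Leaving out 1 mouse, reversals reached -0.37 to 2.29 (Serpina3n, sex after UV), -0.98 to 1.69 (Serpina3n, sex difference in the UV response), -1.44 to 1.18 (Serpina3n, sex after UV in wild-type mice), -0.47 to 0.20 (Serpina3g, sex after UV) and -0.05 to 0.28 (Serpina3h, sex without UV). For the weak correlations the ranges were -0.35 to 0.06 (Serpina3g with Serpina3h), -0.26 to 0.01 (Serpina3g with Serpina3i), 0 to 0.15 (Serpina3g with Serpina3n), -0.28 to 0.18 (Serpina3h with Serpina3n, and 0.14 without both 38M and 77F, a step added after the data were seen) and -0.35 to 0.03 (Serpina3i with Serpina3n). No paired analysis was possible because every mouse had its own number and belonged to 1 group. Serpina3c, Serpina3f, Serpina3k and Serpina3m are limited by their few reads, and levels defined from the same values cannot be separated from sex and genotype in UV-exposed Ppard-/- mice.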
